A study of Mus musculus with 9 samples.

Results

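Acute phase plasma proteins are secreted mainly by hepatocytes, and their blood levels shift during inflammation, infection and tissue injury. In AML12 cells the mRNA of 10 such genes was examined: Saa3, Hp, Hpx, Cp, Fga, Fgb, Fgg, Lbp, Orm1 and Lcn2. They were chosen as genes of the acute phase, with earlier results of these data known. Each was found by its Ensembl identifier among the 30350 genes of the deposited table. AML12 is a single immortalised mouse hepatocyte line, derived from a mouse carrying a transforming growth factor alpha transgene. The 9 libraries, 3 per group, came from cells that all grew in DMEM/F12 medium. FFA-SIN cells received free fatty acids for 24 hours, followed by 48 hours of free fatty acids combined with sinomenine, an alkaloid of the plant Sinomenium acutum, at 200 µM. FFA cells received free fatty acids alone, and NC cells were kept in the medium without additions. The fatty acids, their dose and any solvent control were not given in the sources used here, nor were the durations of the FFA and NC cultures, so an effect of an agent and one of time in culture cannot be told apart.

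In the classical acute phase response, interleukin-6 acts through its receptor, JAK kinases and the transcription factor STAT3, and interleukin-1 and tumour necrosis factor act through NF-kB. Together with the C/EBP factors they raise transcription of the positive acute phase genes in the liver, while negative acute phase genes such as albumin and transferrin are lowered. The products bind haemoglobin, heme, copper, bacterial lipid or siderophores, or form the clot.

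The libraries held 57912281 to 71391844 reads for FFA-SIN, 43201346 to 67707660 reads for FFA and 58862534 to 64460028 reads for NC, as implied by the steps in the values. The unit was FPKM, a read count divided by the length of the gene and by the size of the library, so levels can be compared between genes. No pair of libraries was identical, and the labels do not say that replicates came from separate cultures. The p-values therefore set differences between groups against the variation between libraries of a group, and this variation may be technical. Of 12 hepatocyte markers, 8 averaged at least 1 FPKM, and Asgr1 and Ahsg stood below 0.1 FPKM. The summed level of the 12 was 2386 to 2409 FPKM in FFA-SIN, 1740 to 1743 FPKM in FFA and 1242 to 1263 FPKM in NC libraries. Most of this sum was Alb, Ttr and Trf, which encode secreted plasma proteins and were the 3 of 8 tested markers higher in FFA-SIN than in FFA by limma at an adjusted p below 0.05. Another 3 were lower (Hnf4a, Apoa1 and Fabp1), and the median log2 fold change was -0.06. FFA-SIN against NC had 4 higher and 2 lower (median 0.22), and FFA against NC had 5 higher and 1 lower (median 0.25). Fabp1 passed the filter only through FFA (means 0.778, 2.09 and 0.383 FPKM in FFA-SIN, FFA and NC). Its calls, lower in FFA-SIN than in FFA and higher in FFA than in NC, rest on that group. Of all tested genes, 31.2% were called in FFA-SIN against FFA, 51.3% in FFA-SIN against NC and 37.5% in FFA against NC. Of 7 cholangiocyte and progenitor markers, 4 averaged at least 1 FPKM, led by Krt19, and their sum was 1555 to 1574 FPKM in FFA-SIN, 1752 to 1773 FPKM in FFA and 1842 to 1915 FPKM in NC, while Epcam, Prom1 and Cftr stood below 0.1 FPKM. Of these 4, Sox9 and Spp1 were higher and Krt7 and Krt19 lower in FFA-SIN than in FFA (median -0.00), and likewise in FFA-SIN than in NC (median -0.07). Between FFA and NC Sox9 was higher and Krt7 and Krt19 were lower (median -0.02). Markers of macrophages (5 in the table) summed to at most 6.838 FPKM, those of stellate cells to at most 10.24 FPKM, those of endothelial cells to at most 0.436 FPKM and those of neutrophils (5 in the table) to at most 20.6 FPKM in any library. Their part in the results was not tested, and in RNA from whole cultures fewer cells of a type and less RNA per cell cannot be told apart.

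The promoters of 5 members are shown because these genes stand for the patterns described below: the fibrinogen genes Fga, Fgb and Fgg, which lie side by side, Saa3, which had the largest change between FFA-SIN and FFA libraries, and Lcn2, which passed the test in no comparison. RefSeq gave 8 promoters for 7 of the 10 members, Saa3, Hpx, Cp (from 2 starts), Fga, Fgb, Fgg and Lcn2, while Hp, Lbp and Orm1 are named only. Each sequence runs from 250 bases before to 50 bases after the start, on build GRCm38.p6, which differs from the build named for the alignment. The regions are chr3:83025903-83026202 on the plus strand for Fga, chr3:83049814-83050113 on the minus strand for Fgb, chr3:83007474-83007773 on the plus strand for Fgg, chr7:46715627-46715926 on the minus strand for Saa3 and chr2:32387690-32387989 on the minus strand for Lcn2. Capitals mark matches, on either strand, to a STAT motif (TTCNNNGAA), a C/EBP motif (TTGCNNAA) or an HNF1 motif.
Fga: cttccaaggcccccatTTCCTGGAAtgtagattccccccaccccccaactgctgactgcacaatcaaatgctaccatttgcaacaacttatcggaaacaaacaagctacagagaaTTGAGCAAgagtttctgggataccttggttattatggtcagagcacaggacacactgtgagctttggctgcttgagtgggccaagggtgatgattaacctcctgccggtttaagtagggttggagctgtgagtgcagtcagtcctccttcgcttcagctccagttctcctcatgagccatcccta
Fgb: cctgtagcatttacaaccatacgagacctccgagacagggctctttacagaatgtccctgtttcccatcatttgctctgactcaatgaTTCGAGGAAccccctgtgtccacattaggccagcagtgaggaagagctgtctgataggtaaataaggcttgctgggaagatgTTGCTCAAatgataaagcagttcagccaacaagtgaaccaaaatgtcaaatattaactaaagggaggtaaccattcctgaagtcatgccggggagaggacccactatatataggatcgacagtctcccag
Fgg: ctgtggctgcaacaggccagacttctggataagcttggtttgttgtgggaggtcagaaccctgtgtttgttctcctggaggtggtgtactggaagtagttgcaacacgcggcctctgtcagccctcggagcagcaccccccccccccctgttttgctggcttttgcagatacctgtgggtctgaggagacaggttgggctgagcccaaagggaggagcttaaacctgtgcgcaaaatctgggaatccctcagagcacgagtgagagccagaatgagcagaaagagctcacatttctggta
Saa3: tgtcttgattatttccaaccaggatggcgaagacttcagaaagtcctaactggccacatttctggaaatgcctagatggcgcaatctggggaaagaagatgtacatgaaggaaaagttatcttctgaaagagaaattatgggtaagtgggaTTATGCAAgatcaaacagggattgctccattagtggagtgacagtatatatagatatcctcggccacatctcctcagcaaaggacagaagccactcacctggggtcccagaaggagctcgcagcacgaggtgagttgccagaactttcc
Lcn2: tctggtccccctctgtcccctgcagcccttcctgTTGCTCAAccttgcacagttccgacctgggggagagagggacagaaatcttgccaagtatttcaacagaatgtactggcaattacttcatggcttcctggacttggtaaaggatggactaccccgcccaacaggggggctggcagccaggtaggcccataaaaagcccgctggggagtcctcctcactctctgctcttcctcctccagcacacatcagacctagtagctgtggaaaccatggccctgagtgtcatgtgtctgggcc

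The STAT motif was present in 8.3% of 32851 RefSeq promoters of this length and the C/EBP motif in 10.8%. The promoters of Fga and Fgb held both. In Fga the STAT match lay at positions -234 to -226 from the start and the C/EBP match at -135 to -128, and in Fgb they lay at -162 to -154 and -80 to -73. Saa3 held a C/EBP match at -99 to -92, and Lcn2 held the letters of the Fgb C/EBP match at -216 to -209. Hpx had a C/EBP match at -200 to -193 and the second start of Cp had another at -70 to -63. An HNF1 motif (GTTAAT and ATT with any base between), present in 0.399% of promoters, matched at the first start of Cp. A loose NF-kB motif (GGG and CC with any 5 bases between) was present in 50.8% of promoters and matched in Fgg, where 2 matches overlapped each other, in Lcn2 and at the second start of Cp. The Fgg promoter had no match to the STAT, C/EBP or HNF1 letters. No match to one motif overlapped a match to another. A match describes letters only, and no binding was measured.

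The members spanned a wide range of levels, as the plot of FPKM by library shows. Lbp, Lcn2, Cp and Hpx were the most abundant and made up 94 to 94.3% of the members' summed FPKM in FFA-SIN, 97.5 to 97.7% in FFA and 98.6% in NC libraries. The sum itself averaged 905 ± 8.81 FPKM in FFA-SIN, 846 ± 3.36 FPKM in FFA and 970 ± 19.5 FPKM in NC (SD, n = 3 each). In FFA-SIN libraries the order from high to low was Lbp, Lcn2, Cp, Hpx, Hp, Saa3, Fgb, Fga, Orm1 and Fgg. In FFA libraries Orm1 stood above Fga, with the order otherwise as in FFA-SIN. In NC libraries Hpx stood above Cp and Orm1 above Fga, and Hp and Saa3 overlapped. No other neighbouring pair overlapped between genes within a group. Reads behind single values were between 12 and 105 for Fgg and between 39 and 86 for Orm1, against 99 to 702 for Fga and 83046 to 170296 for Lbp.

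**Figure D1:**
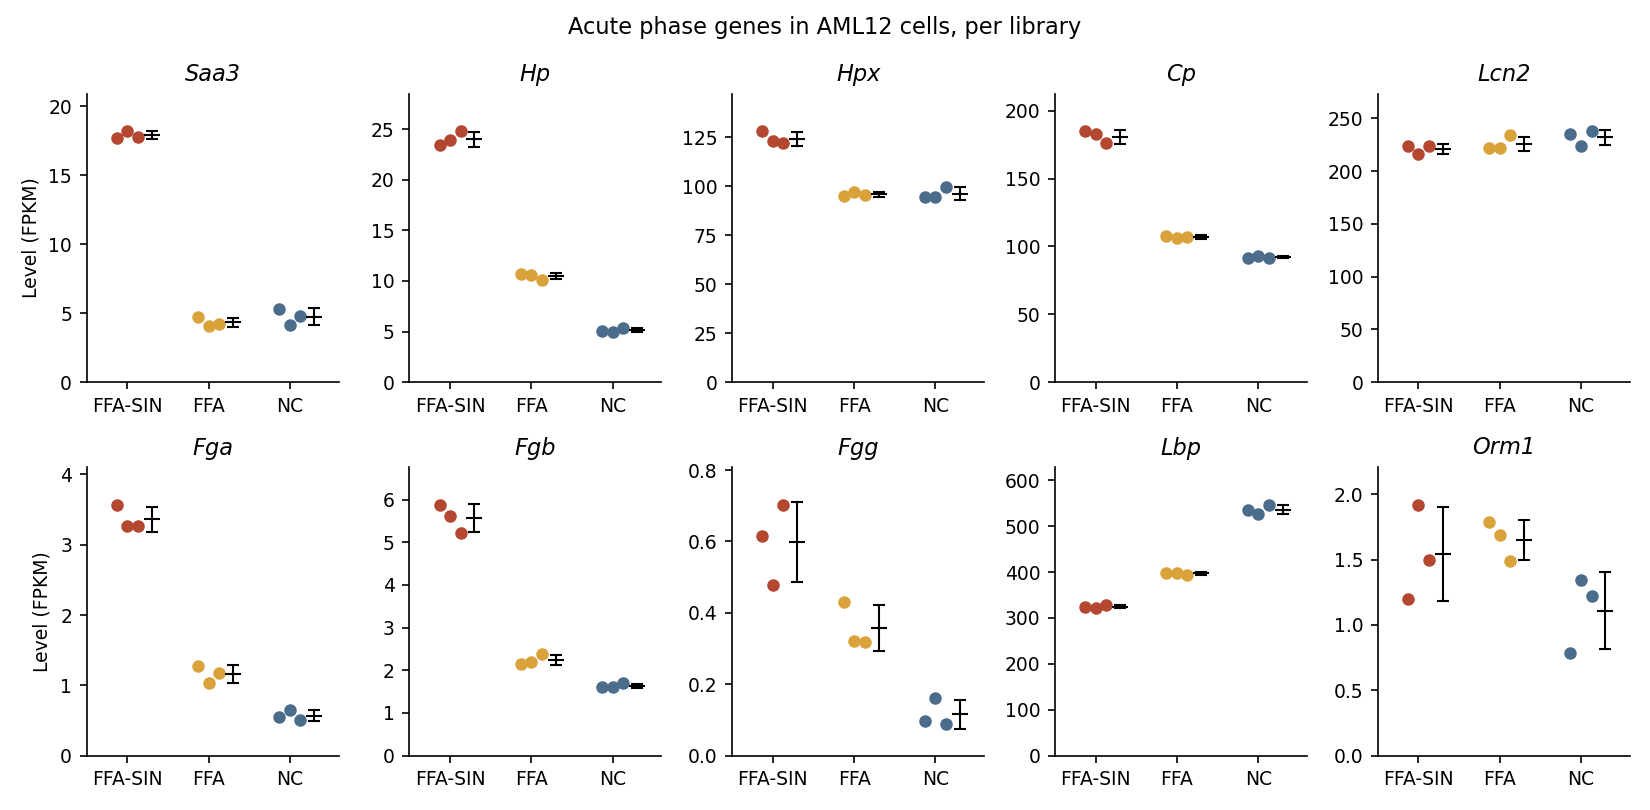
FPKM of the 10 acute phase genes in each of 9 AML12 libraries, with FFA-SIN, FFA and NC from left to right in every panel; points are libraries, bars are the mean and SD of 3, and each vertical axis starts at 0. Saa3 stood at 17.7 to 18.2 FPKM in FFA-SIN, above every FFA and NC library, while Lbp was lowest in FFA-SIN and Lcn2 lay between 216 and 238 FPKM throughout.

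Among 9 members with a mean of at least 1 FPKM, sinomenine added to fatty acids was accompanied by higher Saa3, Hp, Fga, Fgb, Cp and Hpx and by lower Lbp. These are 6 members higher and 1 lower in FFA-SIN than in FFA by limma at an adjusted p below 0.05, and Orm1 and Lcn2 did not pass. Of all 11659 genes tested, 31.2% were called in this comparison, 13.9% higher and 17.3% lower. The median log2 fold change was 0.75 over the 9 members and -0.01 over all tested genes. Because the members were chosen with earlier results of these data known, their counts and medians describe this list only. Fgg, the 10th, lay below the filter on low values. Between FFA-SIN and NC 6 members were higher and 1 lower, where 51.3% of all genes were called (24.7% higher, 26.5% lower), and the medians were 0.97 over the members and -0.01 over all tested genes. Between FFA and NC 4 members were higher (Hp, Cp, Fga and Fgb), 1 was lower (Lbp) and 4 did not pass, where 37.5% of all genes were called (19.1% higher, 18.4% lower). There the medians were 0.21 and 0.00. Fga passed the filter only through its FFA-SIN libraries, so its inclusion in the counts and medians of all 3 comparisons rests on that group. Its calls as higher in FFA-SIN than in FFA and in NC come from the same libraries that let it pass. Libraries of the compared groups did not overlap for 7 of the 9 tested members in FFA-SIN against FFA (45.5% of all tested genes), for 8 in FFA-SIN against NC (60.1%) and for 6 in FFA against NC (48.9%). Any pair of the 3 comparisons shares a group, so they are not independent. Without NC replicate 2 the members called lower were 2 in FFA against NC and 2 in FFA-SIN against NC.

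**Figure D2:**
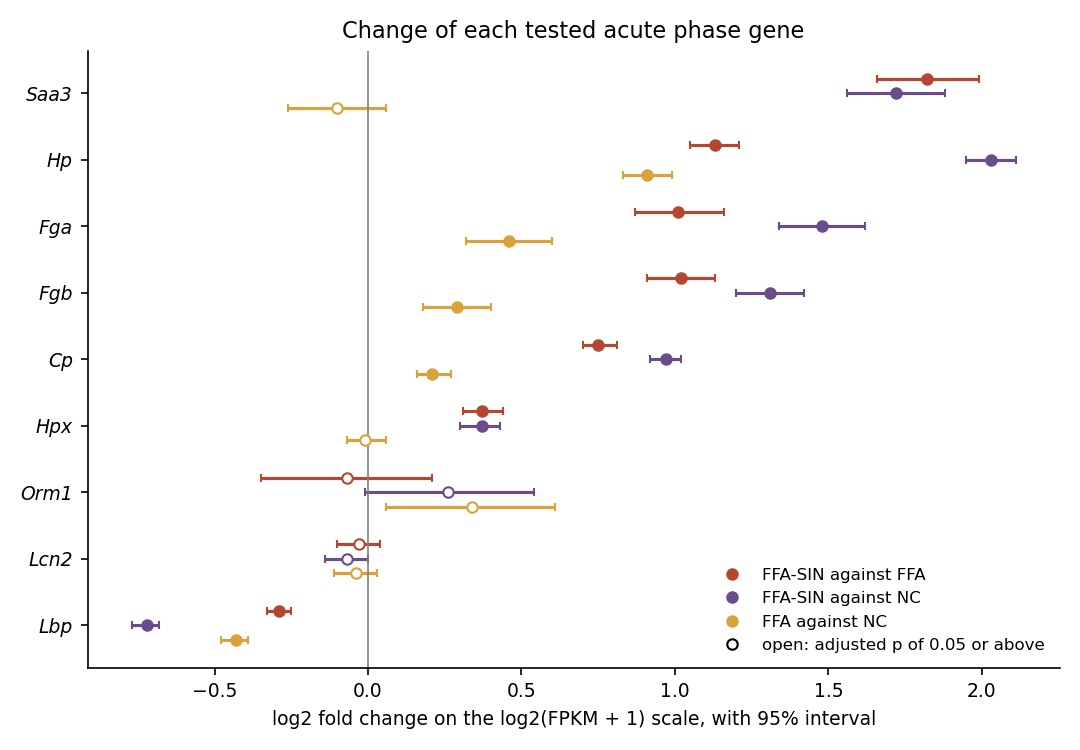
The log2 fold change with its 95% interval, on the log2(FPKM + 1) scale from limma, of the 9 tested members in FFA-SIN against FFA, FFA-SIN against NC and FFA against NC; filled points had an adjusted p below 0.05. Saa3 reached 1.82 against FFA and 1.72 against NC, Lbp was at -0.29, -0.72 and -0.43 in the order of the legend, and Lcn2 stayed between -0.07 and -0.03.

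Haptoglobin, encoded by Hp, captures free haemoglobin from lysed red cells. Hp stood at 23.4, 23.9 and 24.8 FPKM in FFA-SIN libraries, 10.7, 10.6 and 10.1 FPKM in FFA libraries and 5.02, 4.98 and 5.36 FPKM in NC libraries. The 3 groups did not overlap, and FFA lay between the others. The mean in FFA-SIN was 2.3 times that in FFA and 4.69 times that in NC, and the mean in FFA was 2.05 times that in NC. On the log2 scale Hp was higher by 1.13 ± 0.04 (SE) in FFA-SIN than in FFA (adjusted p = 4.43e-08). It was higher by 0.91 ± 0.04 in FFA than in NC (adjusted p = 1.67e-07) and by 2.03 ± 0.04 in FFA-SIN than in NC (adjusted p = 3.07e-10).

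Hemopexin, encoded by Hpx, binds free heme and carries it to the hepatocyte. Hpx stood at 128, 123 and 122 FPKM in FFA-SIN, 94.8, 97 and 95.6 FPKM in FFA and 94.3, 94.5 and 99.7 FPKM in NC libraries. Every FFA-SIN library was above every other, and FFA and NC overlapped. The rise of 1.3 times over FFA (log2 0.37 ± 0.03, adjusted p = 1.11e-05) was the smallest among the members called higher in that comparison. Against NC, FFA-SIN was higher by 0.37 ± 0.03 (adjusted p = 4.7e-06). Between FFA and NC the difference was -0.01 with a 95% interval of -0.07 to 0.06 (adjusted p = 0.899).

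Ceruloplasmin, encoded by Cp, carries copper and oxidises iron so that transferrin can take it up. Its level was 185, 183 and 176 FPKM in FFA-SIN, 108, 106 and 107 FPKM in FFA and 91.8, 93.2 and 91.5 FPKM in NC libraries. All 3 groups were apart, with FFA-SIN far above the others and FFA a little above NC. The FFA-SIN mean was 1.69 times that of FFA (log2 0.75 ± 0.02, adjusted p = 3.93e-08) and 1.97 times that of NC (log2 0.97 ± 0.02, adjusted p = 2.18e-09). The FFA mean was 1.16 times that of NC (log2 0.21 ± 0.02, adjusted p = 0.000108).

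Lipocalin 2, encoded by Lcn2, withholds iron from bacteria by binding their siderophores. Lcn2 was at 224, 216 and 224 FPKM in FFA-SIN, 222, 222 and 234 FPKM in FFA and 235, 224 and 238 FPKM in NC libraries. FFA overlapped both other groups, while the highest FFA-SIN library lay just below the lowest NC library, both at 224 FPKM after rounding. The log2 difference was -0.03 between FFA-SIN and FFA (95% interval -0.10 to 0.04, adjusted p = 0.494) and -0.04 between FFA and NC (-0.11 to 0.03, adjusted p = 0.332). Between FFA-SIN and NC it was -0.07 ± 0.03 (adjusted p = 0.0785). Without NC replicate 2 this became -0.10 with an adjusted p of 0.0256, past the threshold.

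Fibrinogen is assembled from 3 chains, alpha (Fga), beta (Fgb) and gamma (Fgg), and is cut by thrombin into fibrin. In the RefSeq gene order, Fgg, Fga and Fgb are neighbours on chromosome 3, between Lrat and Plrg1. Fga stood at 3.57, 3.26 and 3.27 FPKM in FFA-SIN, 1.28, 1.03 and 1.18 FPKM in FFA and 0.543, 0.655 and 0.51 FPKM in NC libraries. Fgb stood at 5.88, 5.62 and 5.22 FPKM in FFA-SIN, 2.14, 2.2 and 2.37 FPKM in FFA and 1.62, 1.61 and 1.7 FPKM in NC libraries. Fgg stood at 0.614, 0.479 and 0.703 FPKM in FFA-SIN, 0.431, 0.321 and 0.318 FPKM in FFA and 0.0967, 0.162 and 0.0889 FPKM in NC libraries. For each chain the FFA-SIN libraries were above all FFA libraries, and those were above all NC libraries.

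Fga was higher in FFA-SIN than in FFA by 1.01 ± 0.06 on the log2 scale (adjusted p = 3.23e-06) and than in NC by 1.48 ± 0.06 (adjusted p = 8.53e-08). Between FFA and NC it was higher by 0.46 ± 0.06 (adjusted p = 0.000427). In plain FPKM its means differed 2.89-fold, 5.91-fold and 2.04-fold in these comparisons, since adding 1 before the logarithm shrinks changes at low levels. Fga averaged 1.7 FPKM over all libraries and passed the filter only through FFA-SIN (means 3.36, 1.16 and 0.569 FPKM in FFA-SIN, FFA and NC). Its calls as higher in FFA-SIN than in FFA and in NC therefore rest on the group that let it pass. With no filter on low values its difference between FFA and NC was 0.46 (limma adjusted p = 0.00298). Fgb was higher in FFA-SIN than in FFA by 1.02 ± 0.05 (adjusted p = 5.3e-07), than in NC by 1.31 ± 0.05 (adjusted p = 3e-08), and in FFA than in NC by 0.29 ± 0.05 (adjusted p = 0.00129). Its means differed 2.49-fold, 3.39-fold and 1.36-fold. Fgg averaged 0.357 FPKM over the 9 libraries and was not in the test. With no filter on low values its log2 difference was 0.24 ± 0.06 between FFA-SIN and FFA (adjusted p = 0.0514), 0.52 ± 0.06 between FFA-SIN and NC (adjusted p = 0.000607) and 0.28 ± 0.06 between FFA and NC (adjusted p = 0.0212). The flanking gene Plrg1, a splicing factor subunit, averaged 21.5 ± 0.244 FPKM in FFA-SIN, 21.8 ± 0.6 FPKM in FFA and 19.7 ± 0.359 FPKM in NC. On the other flank Lrat, which esterifies retinol, was listed at 0 in all FFA and NC libraries and averaged 0.00175 FPKM in FFA-SIN.

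Ratios between the chains varied between groups and between libraries. The ratio of Fgb to Fga was 1.66 ± 0.0637 in FFA-SIN, 1.94 ± 0.239 in FFA and 2.93 ± 0.434 in NC libraries (SD, n = 3 each), so NC lay above both other groups without overlap. The ratio of Fgg to Fga was 0.178 ± 0.0345 in FFA-SIN, 0.306 ± 0.035 in FFA and 0.2 ± 0.0415 in NC, with FFA above both. The ratio of Fgb to Fgg was 9.58 ± 2.16 in FFA-SIN, 6.43 ± 1.31 in FFA and 15.3 ± 4.76 in NC. With 3 against 3 libraries an exact two-sided permutation test cannot give a p below 0.1, and the 9 tests gave p from 0.1 to 0.5 (adjusted 0.18 to 0.5), so none could pass. With 1 FPKM added to both chains 4 of the 9 differences turned round, among them that of Fgg to Fga between FFA and NC, with a log2 difference of -0.18 in place of 0.63.

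**Figure D3:**
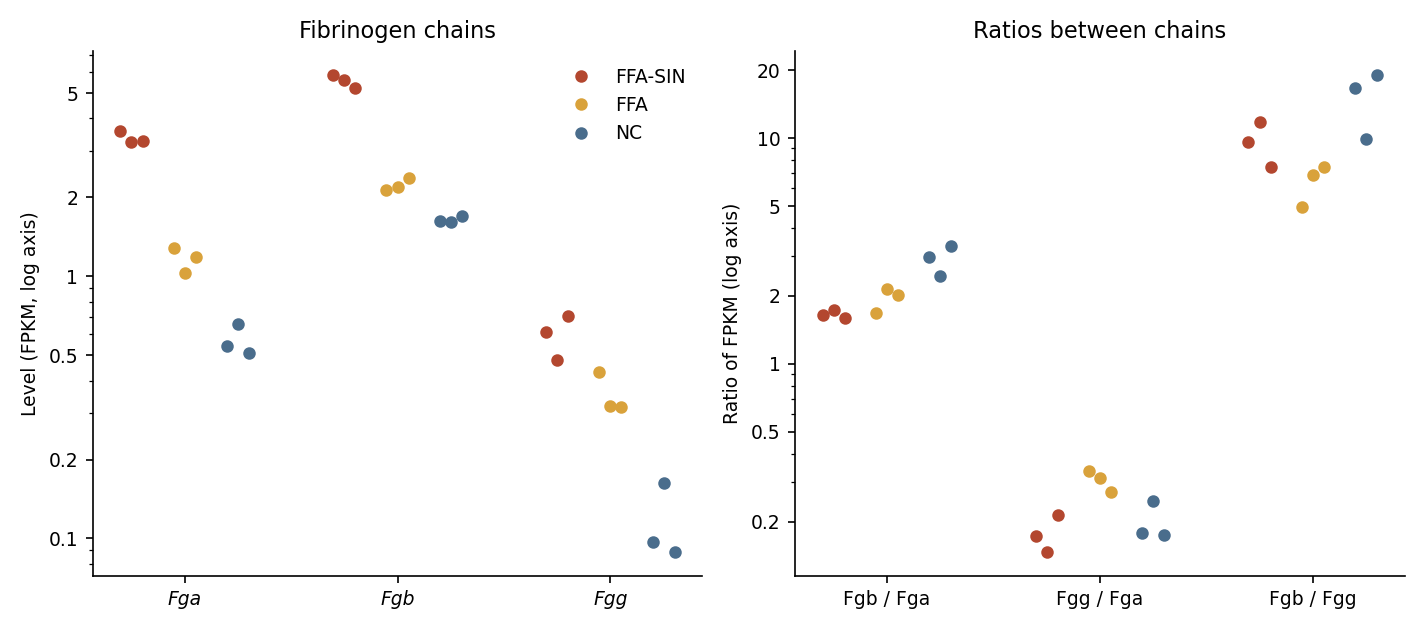
Left, FPKM of the fibrinogen genes Fga, Fgb and Fgg per library on a log axis, with FFA-SIN, FFA and NC from left to right for each gene; right, the ratios between chains per library, also on a log axis in the same order. Each chain stepped down without overlap in that order, and the ratio of Fgb to Fga was highest in NC, at 2.47 to 3.33.

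Serum amyloid A3, encoded by Saa3, is a lipid-binding protein of the mouse that is made in the liver and by macrophages and fat cells during inflammation. Saa3 stood at 17.7, 18.2 and 17.8 FPKM in FFA-SIN, 4.71, 4.08 and 4.25 FPKM in FFA and 5.32, 4.12 and 4.82 FPKM in NC libraries. All FFA-SIN libraries were far above the rest, and FFA and NC overlapped. The mean in FFA-SIN was 4.12 times that in FFA (log2 1.82 ± 0.07, adjusted p = 1.87e-07) and 3.77 times that in NC (log2 1.72 ± 0.07, adjusted p = 7.52e-08). FFA differed from NC by -0.10 with a 95% interval of -0.26 to 0.06 (adjusted p = 0.298). Without NC replicate 2 that difference was -0.18 with an adjusted p of 0.0354.

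Saa3 has relatives beside it on chromosome 7, in the order Saal1, Saa3, Saa4, Saa1 and Saa2. The liver forms Saa1 and Saa2 averaged at most 0.0867 FPKM and 0.0135 FPKM in any group. Saa4 averaged 0.458 ± 0.0687 FPKM in FFA-SIN, 0.112 ± 0.0372 FPKM in FFA and 0.271 ± 0.0387 FPKM in NC, too low for the test. The neighbour Saal1 averaged 3.4 ± 0.0913 FPKM in FFA-SIN, 3.55 ± 0.275 FPKM in FFA and 3.42 ± 0.0754 FPKM in NC. How reads that match several Saa genes were counted is not given in the sources used here.

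Lipopolysaccharide-binding protein, encoded by Lbp, hands bacterial lipopolysaccharide to Cd14. Lbp was the most abundant member in every library, at 324, 321 and 329 FPKM in FFA-SIN, 398, 399 and 394 FPKM in FFA and 535, 526 and 547 FPKM in NC libraries. The groups did not overlap, and NC was highest. Its mean in FFA-SIN was 0.818 times that in FFA (log2 -0.29 ± 0.02, adjusted p = 5.94e-06) and 0.606 times that in NC (log2 -0.72 ± 0.02, adjusted p = 4.93e-09). The mean in FFA was 0.741 times that in NC (log2 -0.43 ± 0.02, adjusted p = 4.52e-07). Cd14, the coreceptor that receives its cargo, was also lower, at 458 ± 11 FPKM in FFA-SIN against 625 ± 3.73 FPKM in FFA (log2 -0.45, adjusted p = 6.39e-07), with 697 ± 9.78 FPKM in NC.

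Orosomucoid 1, encoded by Orm1, is an acid glycoprotein that binds drugs and lipids. It stood at 1.2, 1.92 and 1.5 FPKM in FFA-SIN, 1.79, 1.69 and 1.49 FPKM in FFA and 0.783, 1.34 and 1.22 FPKM in NC libraries. FFA-SIN overlapped both other groups, and FFA lay above NC. The difference was -0.07 between FFA-SIN and FFA (95% interval -0.35 to 0.21, adjusted p = 0.704), 0.26 between FFA-SIN and NC (-0.01 to 0.54, adjusted p = 0.101) and 0.34 between FFA and NC (0.06 to 0.61, adjusted p = 0.0587). FFA against NC passed without FFA-SIN replicate 1 (adjusted p = 0.0454), without FFA-SIN replicate 2 (0.0416) or without NC replicate 2 (0.0456), and FFA-SIN against NC passed without FFA-SIN replicate 1 (0.0429). Its close relatives Orm2 and Orm3 averaged at most 0.036 FPKM and 0.132 FPKM in any group, and reads that the 3 genes share could have been assigned to any of them.

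Other positive acute phase genes were mostly low in these cells. Of 27 listed, 25 were in the table and 6 passed the filter; results for Serpina3m and A2m were not analysed here. Between FFA-SIN and FFA 1 was higher and 1 lower, between FFA-SIN and NC 2 and 3, and between FFA and NC 0 and 2, with medians of -0.00, -0.12 and -0.04. The shares of all tested genes called were 31.2%, 51.3% and 37.5% in the same order. C3, the central complement component, was the most abundant, at 524 ± 5.18 FPKM in FFA-SIN against 485 ± 3.44 FPKM in FFA (log2 0.11, adjusted p = 0.00256). Il1rn, the interleukin-1 receptor antagonist, was at 15.5 ± 0.124 FPKM in FFA-SIN against 18.8 ± 0.28 FPKM in FFA (log2 -0.26, adjusted p = 3.47e-05), with 29.2 ± 0.671 FPKM in NC. Cfb, a complement factor, was lower in FFA than in NC by 0.47 on the log2 scale (4.27 ± 0.513 FPKM in FFA, 6.27 ± 0.179 FPKM in NC, adjusted p = 0.000476). The liver genes Crp, Serpina3n, Itih4 and Hamp averaged below 0.13 FPKM in every group.

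Most of the negative acute phase genes that could be tested were higher in FFA-SIN than in FFA and in FFA than in NC. Of 10 listed, 5 passed the filter, and 4 were higher and 1 lower in FFA-SIN than in FFA (median 0.40). Between FFA-SIN and NC 4 were higher and 1 lower (median 0.84), and between FFA and NC 4 were higher and 0 lower (median 0.38). Calls over all tested genes made up 31.2%, 51.3% and 37.5% in these 3 comparisons. Albumin mRNA, Alb, was at 555 ± 3.47 FPKM in FFA-SIN against 271 ± 0.631 FPKM in FFA (log2 1.03, adjusted p = 8.7e-10), with 198 ± 1.03 FPKM in NC. Transferrin, Trf, was at 1019 ± 5.88 FPKM in FFA-SIN against 771 ± 8.21 FPKM in FFA (log2 0.40, adjusted p = 2.31e-07), with 474 ± 0.384 FPKM in NC. The thyroxine and retinol carriers Ttr and Rbp4 were higher in FFA-SIN than in FFA by 0.32 and 0.64. Apoa1, the main protein of high-density lipoprotein, was lower, at 2.58 ± 0.141 FPKM in FFA-SIN against 3.57 ± 0.452 FPKM in FFA (log2 -0.35, adjusted p = 0.00554). Alb, Apoa1, Ttr and Trf also stand in the hepatocyte marker list.

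Of 15 genes of the interleukin-6 receptors, JAK kinases and STAT3 with its feedback, 12 were tested. In FFA-SIN against FFA 4 were higher and 3 lower (median 0.04), between FFA-SIN and NC 2 and 2 (median -0.04), and between FFA and NC 1 and 4 (median -0.06). Among all tested genes 31.2%, 51.3% and 37.5% were called in these comparisons. Socs3, the feedback inhibitor induced by STAT3, was at 18.5 ± 1.06 FPKM in FFA-SIN against 12.8 ± 0.183 FPKM in FFA (log2 0.50, adjusted p = 1.24e-05) and 12.6 ± 0.325 FPKM in NC. Socs1, a related inhibitor, was lower by 0.37 in FFA-SIN than in FFA (adjusted p = 0.00613). Il6st, the shared receptor chain gp130, was at 13.6 ± 0.045 FPKM in FFA-SIN, 11.7 ± 0.15 FPKM in FFA and 14 ± 0.294 FPKM in NC. Stat3 itself differed by 0.04 between FFA-SIN and FFA (adjusted p = 0.237), and Osmr and Lifr averaged below 0.001 FPKM in every group.

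The arm from interleukin-1, tumour necrosis factor and toll-like receptors to NF-kB had 22 listed genes, of which 21 were in the table and all 21 were tested. Between FFA-SIN and FFA 5 were higher and 9 lower (median -0.01), between FFA-SIN and NC 3 and 8 (median -0.02), and between FFA and NC 2 and 10 (median -0.09). Over all tested genes 31.2%, 51.3% and 37.5% were called in these comparisons. Nfkbiz, a nuclear partner of NF-kB, was at 22.9 ± 0.657 FPKM in FFA-SIN against 38.5 ± 0.975 FPKM in FFA (log2 -0.72, adjusted p = 2.36e-07). Tnfrsf1b, a receptor of tumour necrosis factor, was at 7.31 ± 0.395 FPKM in FFA-SIN against 12.5 ± 0.226 FPKM in FFA (log2 -0.71, adjusted p = 2.53e-06). Nfkb1, a subunit of NF-kB, was higher by 0.23 in FFA-SIN than in FFA (adjusted p = 0.000452) and lower by 0.19 in FFA than in NC (adjusted p = 0.00111).

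Of 10 cytokine ligands, 8 were in the table and 3 were tested: Tnf, Lif and Clcf1. Tnf averaged 0.879 ± 0.108 FPKM in FFA-SIN, 1.99 ± 0.182 FPKM in FFA and 3.02 ± 0.379 FPKM in NC, lower by 0.67 in FFA-SIN than in FFA (adjusted p = 0.000196) and by 0.42 in FFA than in NC (adjusted p = 0.00269). In FFA-SIN against FFA 1 ligand was higher (Lif) and 2 were lower (median -0.11), between FFA-SIN and NC 0 and 2 (median -0.41), and between FFA and NC 0 and 3 (median -0.31). Shares called over all tested genes were 31.2%, 51.3% and 37.5% in this order. Il6 and Il1b averaged at most 0.0388 FPKM and 0.00302 FPKM in any group.

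Of 14 transcription factors of the hepatocyte and the acute phase, 11 were tested. Between FFA-SIN and FFA 1 was higher and 4 lower (median -0.03), between FFA-SIN and NC 2 and 6 (median -0.13), and between FFA and NC 1 and 4 (median -0.09). For all tested genes the shares called were 31.2%, 51.3% and 37.5%. Cebpb, which activates many acute phase promoters, was the gene higher in FFA-SIN than in FFA (log2 0.28, limma adjusted p = 0.00268). It averaged 62.1 ± 4.76 FPKM in FFA-SIN, 50.9 ± 0.291 FPKM in FFA and 57.9 ± 2.68 FPKM in NC. Between FFA and NC its log2 difference was -0.18 (limma adjusted p = 0.0206). Between FFA-SIN and NC it was 0.10 (limma adjusted p = 0.133), and the libraries overlapped. Hnf4a, a master regulator of hepatocyte genes, was lower, at 104 ± 1.16 FPKM in FFA-SIN against 118 ± 1.71 FPKM in FFA (log2 -0.18, adjusted p = 8.14e-05) and 131 ± 0.556 FPKM in NC. The glucocorticoid receptor gene Nr3c1 differed by -0.02 between FFA-SIN and FFA (adjusted p = 0.559).

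Of 23 receptors and partners of the member proteins, 10 were tested. Between FFA-SIN and FFA 5 were higher and 2 lower (median 0.11), between FFA-SIN and NC 5 and 4 (median 0.15), and between FFA and NC 2 and 2 (median 0.02). All tested genes had 31.2%, 51.3% and 37.5% called in these comparisons. Hmox1, which degrades the heme that hemopexin delivers, was at 80.7 ± 3.75 FPKM in FFA-SIN against 39.2 ± 1.5 FPKM in FFA (log2 1.02, adjusted p = 2.36e-07) and 24.9 ± 0.994 FPKM in NC. The iron exporter Slc40a1, whose iron ceruloplasmin oxidises, was at 17 ± 0.591 FPKM in FFA-SIN against 13.2 ± 0.132 FPKM in FFA (log2 0.34, adjusted p = 2.85e-05) and 10.9 ± 0.262 FPKM in NC. Lrp1, the receptor of heme-loaded hemopexin, was lower by 0.19 in FFA-SIN than in FFA (adjusted p = 0.000348), and the haptoglobin receptor Cd163 averaged at most 0.0109 FPKM in any group.

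**Figure D4:**
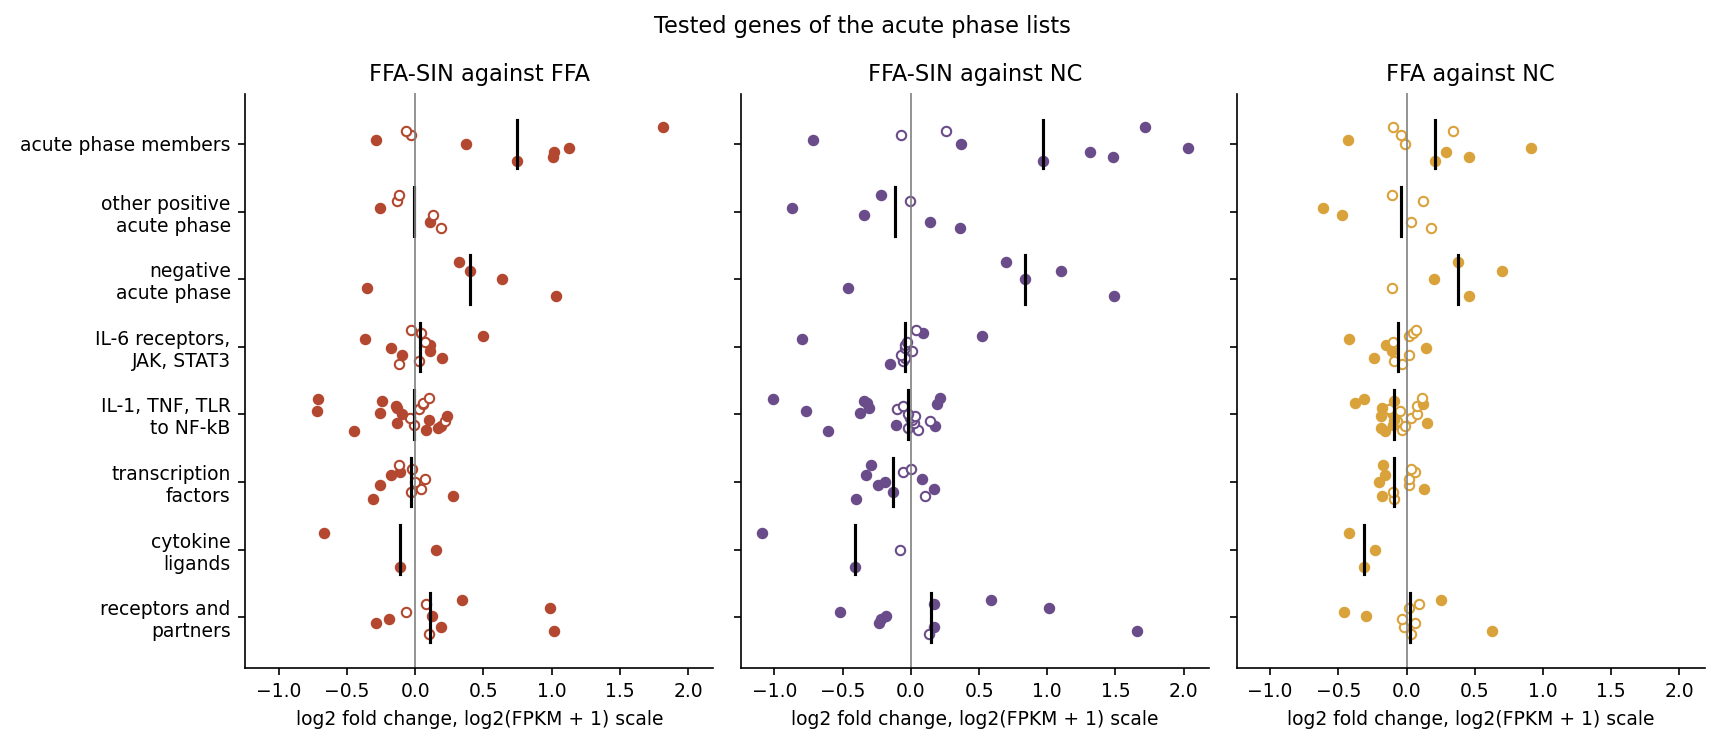
The log2 fold change, on the log2(FPKM + 1) scale, of each tested gene of the members and of 7 related gene lists in FFA-SIN against FFA, FFA-SIN against NC and FFA against NC; filled points had an adjusted p below 0.05 by limma and black bars are list medians. Between FFA-SIN and FFA the medians were 0.75 for the members and 0.40 for the negative acute phase genes, with the other lists between -0.11 and 0.11.

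Over the 9 libraries the members' levels on the log2 scale were related as follows, as a description, since the points fall into 3 groups. Fga and Fgb had r = 0.99, Cp and Fga r = 0.99, Saa3 and Hpx r = 0.98, and Hp and Lbp r = -0.98, whereas Orm1 and Saa3 had r = 0.16. Outside the members, the genes most like Hp by this measure were Fam210b (r = 0.9993), Lgmn and Galc. Those most like Saa3 were Ets1, Anxa5 and Ndrg1, with Ets1 at 6.72 ± 0.0471 FPKM in FFA-SIN, 4.61 ± 0.0864 FPKM in FFA and 4.83 ± 0.0601 FPKM in NC. Near to Hpx were Fabp6 and Osgin1, and Fabp6 averaged 5.01 ± 1.23 FPKM in FFA-SIN and was listed at 0 in all FFA and NC libraries. Nearest to Cp were Slc38a2, Bnip3 and Ermp1, near to Fga were Gpt2 and Kdm3a, and nearest to Fgb were Slc17a2, Tmbim4 and Slc3a2. For Lbp these genes were Igfbp4, Adamts1 and Cd177, with Igfbp4 at 146 ± 3.83 FPKM in FFA-SIN, 186 ± 1.72 FPKM in FFA and 288 ± 5.06 FPKM in NC. The likeness was weaker for Orm1 (Notch2, r = 0.9400, then Nck2 and Usp8) and for Lcn2 (Rbp2, r = 0.9284, then Mrpl41 and Eda).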

How the data were processed

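RNA-seq values of 9 libraries were used as deposited. The mirVana kit gave total RNA, per the labels' protocols, and RNA with an integrity number of 7 or more became TruSeq Stranded Total RNA libraries. Per the submitters' processing notes, Trimmomatic and HISAT2 were used with GRCm39. How reads were counted, with which annotation and with what strand setting, is not given in the sources used here, and overlapping and antisense genes are therefore uncertain. The values deposited by the authors are FPKM, a unit inferred from their steps: all 205016 values above 0 were whole reads within 0.01. Symbols matched 94.7% of identifiers.

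The 11659 genes averaging 1 FPKM or more over the libraries entered limma 3.58.1 (R 4.3.3) as log2(FPKM + 1), computed from the deposited FPKM, using a variance trend and all 9 libraries in a single fit. This scale understates changes of low genes. The filter on the mean over all libraries let a gene pass through its highest group alone. P-values were two-sided and adjusted over all tested genes within a comparison by Benjamini and Hochberg, with 0.05 as the threshold. Fibrinogen ratios were compared by exact permutation. The fit was tested on simulated data. All members are named, and of each related list up to 4 genes per comparison with the smallest adjusted p below 0.05, of which the text gives a part; Apoa1, Lrp1 and genes named as low or not passing were chosen after their values were seen. A few genes picked by these rules are not reported here. Likeness is Pearson's r of log2(FPKM + 1) over 9 libraries. The members and lists were chosen with earlier results of these data known. Other pseudocounts, filters, scalings and fits, and leaving out each library, were tried. Python 3.11.15, numpy 2.4.6, pandas 2.3.3, scipy 1.17.1 and matplotlib 3.10.9 were used.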

Additional observations from a re-analysis of the deposited data

How the results depend on the processing

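All 19 calls of members held in every alternative in which the gene was tested, up to 16 per call: a pseudocount of 0.1 FPKM, no filter, a filter at 5 FPKM, median-of-ratios rescaling, no variance trend, only the libraries compared, the replicate block and leaving out each library. The filters used the mean over all 9 libraries, also where fewer libraries entered the fit. Of the counts over members or all genes, 188 stayed within 1.5 times the reported one and 4 did not. Members called higher in FFA against NC were 2 with the filter at 5 FPKM, where 6 members were tested. Leaving out a library gave 4 to 5 members higher and 1 to 2 lower in FFA against NC, 6 and 1 in FFA-SIN against FFA, and 6 to 7 higher and 1 to 2 lower in FFA-SIN against NC. Deviations of same-numbered libraries correlated at -0.015 to 0.174 and those of other pairs at -0.154 to 0.114. These ranges overlap, and with 3 libraries per group they cannot decide whether equal replicate numbers mark pairs. The main fit treated the libraries as unpaired. With the replicate block, members called lower in FFA-SIN against NC were 2, as Lcn2 passed (adjusted p = 0.0226), and members called higher in FFA against NC were 5, as Orm1 passed (adjusted p = 0.0397). With 1 FPKM added to both chains, ratios of fibrinogen chains changed sign in 4 of 9 comparisons, and none passed. Orm1, with 39 to 86 reads a library, had the largest standard error of the 9 tested members (0.12 on the log2 scale).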

Other observations

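Beside Orm1 on chromosome 4, the RefSeq gene order has Ambp, Kif12 and Col27a1, whose mean levels were lowest in FFA-SIN and highest in NC. Ambp, the precursor of the plasma proteins alpha-1-microglobulin and bikunin, averaged 4.97 ± 0.205 FPKM in FFA-SIN, 7.41 ± 0.165 FPKM in FFA and 16.3 ± 0.257 FPKM in NC (SD, n = 3 each). Kif12, a kinesin, averaged 16.5 ± 0.688 FPKM in FFA-SIN, 27.3 ± 0.159 FPKM in FFA and 42.8 ± 0.796 FPKM in NC, and Col27a1, a fibrillar collagen, averaged 5.97 ± 0.132 FPKM, 7.2 ± 0.152 FPKM and 8.81 ± 0.141 FPKM in the same order of groups. This choice of neighbours was made with their values in view.

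The neutrophil genes S100a8 and S100a9, which encode calprotectin and are also made by epithelia in inflammation, were lower in FFA-SIN. S100a9 averaged 2.23 ± 0.291 FPKM in FFA-SIN against 11.7 ± 0.399 FPKM in FFA (log2 -1.98, limma adjusted p = 6.17e-07) and 14.2 ± 2.09 FPKM in NC. S100a8 averaged 2.6 ± 0.351 FPKM in FFA-SIN against 4.28 ± 0.363 FPKM in FFA (log2 -0.55, limma adjusted p = 0.0035).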
